A study of Mus musculus with 2 samples.

Results

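miR-742, miR-743a, miR-743b, miR-883a and miR-883b are 5 miRNA hairpins of the mouse X chromosome, known from male germ cells. They were taken by name, with both arms of each hairpin, which gave 10 of the 1905 mature miRNAs counted in each library. sncRNA-Seq was done on decapsulated testes of C57BL/6 male mice (C57BL/6J in the methods) at postnatal day 60, with 1 library made from a pool of exposed mice and 1 from a pool of control mice. Exposed mice had received a mixture of EDCs in the drinking water, given to their mothers from post-coital day 0.5 on and then to the males themselves, with the phthalates DEHP, DBP and BBP at 0.3 mg/kg-BW/day each and the alkylphenols NP and OP at 0.05 mg/kg-BW/day each. Control mice drank the vehicle alone (DMSO at about 0.25 g and ethanol at about 0.06 g per kg body weight each day). The methods give n = 3 for each pool, combined in equal amounts of RNA, so the spread between mice cannot be read from these data. The question of the comparison was whether exposure to the mixture changed the miRNAs of the testis.

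A miRNA hairpin is cut from its primary transcript by Drosha and then by Dicer, which leaves a duplex of the 5p arm and the 3p arm. As a rule, the strand kept by an Argonaute protein accumulates and the other is degraded, so that reads of the arms differ in number. A mature miRNA finds its target mRNAs mainly through its seed, the stretch from base 2 to base 8. The X-linked cluster to which these hairpins belong is known in mouse for expression in the testis, mainly in germ cells, and some of its miRNAs are made in meiosis, when most genes of the sex chromosomes are silent.

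The mature sequences are printed because the members differ from one another by few bases, and these bases decide which counts can be told apart. Sequences and positions were those of RefSeq on GRCm38.p6, which is the assembly called mm10, and all 10 members matched by name. Each is written 5′ to 3′ with the seed in capitals, and the prefix mmu- for mouse is left out after this.
mmu-miR-743a-3p: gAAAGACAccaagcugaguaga
mmu-miR-743b-3p: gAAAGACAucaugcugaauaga
mmu-miR-742-3p: gAAAGCCAccaugcuggguaaa
mmu-miR-883a-3p: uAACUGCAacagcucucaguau
mmu-miR-883b-3p: uAACUGCAacaucucucaguau
mmu-miR-743a-5p: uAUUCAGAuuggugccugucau
mmu-miR-743b-5p: uGUUCAGAcugguguccauca
mmu-miR-742-5p: uACUCACAugguugcuaauca
mmu-miR-883a-5p: uGCUGAGAgaaguagcaguuac
mmu-miR-883b-5p: uACUGAGAauggguagcaguca

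The 3p arms fell into seed groups. miR-743a-3p and miR-743b-3p had the same seed and differed at 3 of 22 bases (C9U, A12U and G18A, counted from the 5′ end with the base of miR-743a-3p first). miR-742-3p differed from miR-743a-3p at 4 bases (A6C, A12U, A17G and G21A), of which the first lies in the seed. miR-883a-3p and miR-883b-3p had the same seed and differed at 1 base (G12U), outside it. No other mature miRNA with a sequence in the table, which covered 1621 of the 1905, had any of these 3p seeds. The 5p arms of near copies were less alike. miR-743a-5p and miR-743b-5p differed at 5 of 21 bases (A2G, U9C, C15U, U17C and G18A), so that their seeds differed at base 2. miR-883a-5p and miR-883b-5p were 7 edits apart and had different seeds. miR-743a-5p had the seed of miR-871-5p, a miRNA of the same cluster from which it was 3 edits away. miR-743b-5p had the seed of miR-6948-5p, which had fewer than 10 reads when the libraries were added. The 3p arms of miR-743a, miR-743b and miR-742 began with G, as did 12.8% of the mature sequences in the table, and the other 7 members began with U, against 40.9% in the table.

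None of the 10 mature sequences had a run of 12 bases in common with another mature sequence of the table, and 12 nucleotides was the shortest read that was kept. The longest such run was 11 bases, between miR-883a-3p and miR-883b-3p. A complete read of either copy therefore holds a base that separates them. Up to 3 mismatches were allowed in the alignment, so a read with an error at that base could be placed on the other copy, and how often this occurred was not tested.

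All 5 hairpins lie on the minus strand of chromosome X within 13.2 kb. In GRCm38.p6, Mir743 (miR-743a) is at chrX:66776757-66776818, Mir743b at chrX:66777256-66777332, Mir742 at chrX:66780373-66780437, Mir883a at chrX:66780758-66780833 and Mir883b at chrX:66789890-66789967. miR-743a and miR-743b are 437 bases apart, miR-742 and miR-883a 320 bases, and 9056 bases separate miR-883a from miR-883b. None of the 5 overlapped another gene of GENCODE M21 on either strand, and the pseudogene Gm14681 lies between miR-743b and miR-742. The hairpins of miR-743 are shown next, with the arms in capitals, since the results on arm use turn on them (62 and 77 bases long).
miR-743a hairpin: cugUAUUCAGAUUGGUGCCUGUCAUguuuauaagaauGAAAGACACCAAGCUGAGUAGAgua
miR-743b hairpin: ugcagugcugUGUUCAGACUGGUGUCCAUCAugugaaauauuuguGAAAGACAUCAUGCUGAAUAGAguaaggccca

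**Figure D1:**
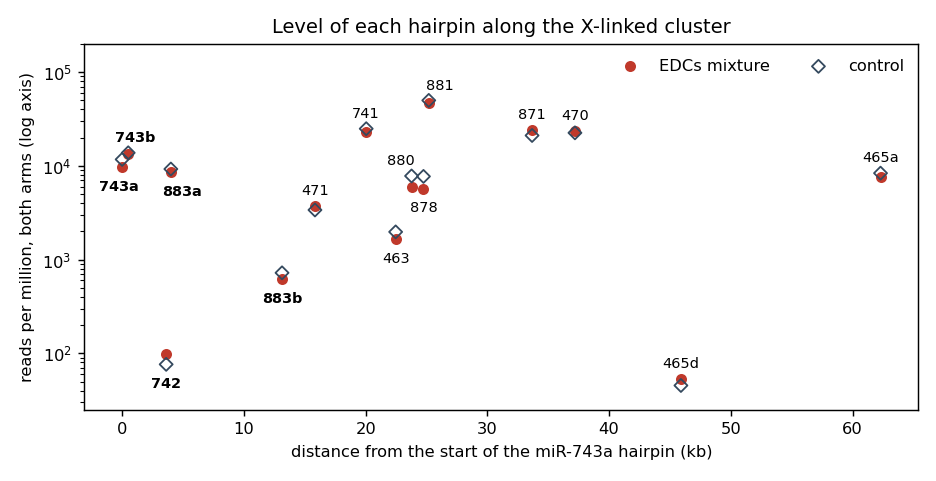
Level of each hairpin (RPM, reads of both arms scaled to the total of the library, log axis) against distance in kb from the start of miR-743a along the X-linked cluster, with filled circles for exposed mice and open diamonds for control mice. miR-742, miR-743 and miR-883 are in bold, miR-465b and miR-465c are left out because each has more than 1 hairpin, and miR-742 (97.7 RPM in exposed mice and 76.3 RPM in control mice) stands far below its neighbour miR-883a (8556 and 9265 RPM).

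Whole reads per mature miRNA summed to 501539 in exposed mice and 550261 in control mice. They were scaled with median-of-ratios size factors (0.937 for exposed mice and 1.07 for control mice). Log2 ratios are exposed over control mice and have exact 95% intervals (Clopper-Pearson). Each p is 2-sided, from an exact binomial test, with Benjamini-Hochberg adjustment over all 484 miRNAs that had 10 reads or more when the libraries were added. A miRNA is called when its adjusted p is under 0.05 and its log2 ratio has a size of 0.5 or more, and is said to be higher or lower at any size if it passes the first condition. The test compares 2 libraries and not the conditions, there is no replicate check, and counting error is all that the intervals cover. The label of the tissue was checked with marker miRNAs: miR-34c-5p of meiotic and later germ cells had the most reads of all (38088 in exposed mice and 45779 in control mice), while miR-122-5p of the liver had 1 and 0. The 3 germ cell markers did not move together. miR-34c-5p was at a log2 ratio of −0.08 (lower at any size), miR-449a-5p at 0.01 and miR-34b-5p called at 0.60. Of 4 spermatogonial markers none was called (−0.20 to 0.22), though miR-146a-5p was higher at any size. Of the other markers, none of which was called, miR-202-5p and miR-202-3p of Sertoli and other somatic gonad cells were at log2 ratios of 0.21 and 0. For smooth muscle, miR-143-3p was at 0.13 and miR-145a-5p at 0.0039, and the endothelial miR-126a-3p was at −0.18. Of these, miR-202-5p and miR-143-3p were higher at any size and miR-126a-3p was lower. The 4 miRNAs of white blood cells had 13 to 111 reads in exposed mice and 22 to 109 reads in control mice. Their log2 ratios ran from −0.97 (miR-150-5p) to 0.21. The 2 of red blood cells had 17 and 116 reads in exposed mice and 18 and 100 in control mice, at 0.10 and 0.40. None of these was higher or lower at any size. The part of these cell types in the results was not tested. In a whole testis, fewer germ cells and less of a miRNA per cell cannot be told apart.

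The 10 members together had 16188 reads in exposed mice, which was 3.23% of the library (3.18 to 3.28), and 19591 reads in control mice, which was 3.56% (3.51 to 3.61). The log2 ratio of the sums was −0.09 (−0.12 to −0.06). It was −0.14 with scaling by total reads, −0.12 when that total left out the 10 most abundant miRNAs, and −0.06 with scaling by TMM. Without miR-743b-3p, the most abundant member, it was −0.13. These miRNAs made up 14.8% of the reads of the X-linked germ cell list (40 mature miRNAs with the members) in exposed mice and 15.8% in control mice. The other 30 miRNAs of that list had 93288 reads in exposed mice and 104245 in control mice, a log2 ratio of 0.03 (0.01 to 0.04). Their share of the library was 18.60% in exposed mice and 18.94% in control mice. The direction of that small difference thus depends on the scaling. The sums were not tested against each other. Single hairpins of the cluster outside the members had log2 ratios from −0.38 to 0.30, on both sides of the value of the members. Nearly all reads of the members came from 3 of them, the 3p arms of miR-743b, miR-743a and miR-883a, with 91.4% in exposed mice and 92.9% in control mice.

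miR-743b-3p had the highest level, with 6191 reads in exposed mice (1.23% of the library, 1.20 to 1.27) and 7167 reads in control mice (1.30%, 1.27 to 1.33). It stood at rank 25 of all mature miRNAs in exposed mice and at rank 24 in control mice. miR-743a-3p had 4346 reads in exposed mice (0.867%, 0.841 to 0.893) and 6002 reads in control mice (1.09%, 1.06 to 1.12), at ranks 30 and 28. miR-883a-3p had 4251 reads in exposed mice (0.848%, 0.822 to 0.873) and 5029 reads in control mice (0.914%, 0.889 to 0.939), at rank 31 in both. In exposed mice the intervals of miR-743a-3p and miR-883a-3p overlapped, whereas in control mice the 3 lay apart from each other. The miRNAs of the cluster nearest to miR-743b-3p in level over the libraries, by distance in log2 RPM, were miR-465b-5p (0.27), miR-465c-5p (0.66) and miR-871-3p (0.95), and with 1 library per group this likeness concerns levels only.

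The remaining members were far less abundant, and the largest step in the order was the one from miR-883a-3p to miR-743a-5p (8.01 times in exposed mice and 11.1 times in control mice). miR-743a-5p had 531 reads in exposed mice (0.106% of the library) and 455 in control mice (0.0827%). miR-743b-5p made up 0.0939% of the library in exposed mice and 0.0780% in control mice. miR-883b-3p followed with 221 reads in exposed mice and 309 in control mice, and then miR-883b-5p with 88 and 89. These levels lay apart from those of the 3 abundant arms, while miR-743a-5p and miR-743b-5p overlapped with each other in each library. miR-883a-5p had 40 reads in exposed mice and 69 in control mice. miR-742 was the least abundant, with 29 and 24 reads of the 3p arm and 20 and 18 of the 5p arm, for which the intervals overlapped in each library. The order of the 10 was the same in exposed and control mice, though the counts did not separate every neighbour in it. The intervals of miR-883a-5p and miR-742-3p overlapped in exposed mice, and those of miR-883b-5p and miR-883a-5p in control mice.

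**Figure D2:**
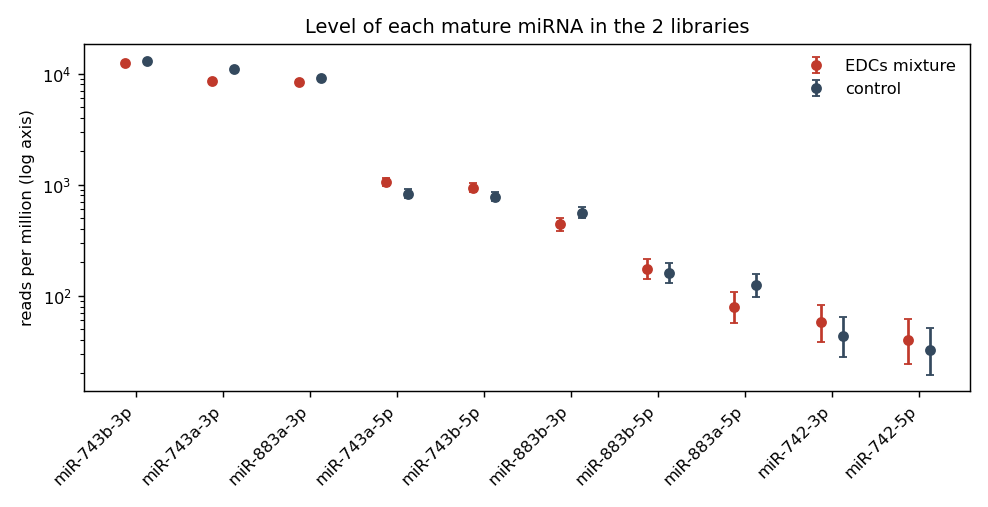
RPM of each mature miRNA (reads scaled to the total of the library, log axis) in exposed mice (left of each pair) and control mice (right), with exact 95% intervals for counting error. Levels run from 12344 and 13025 RPM for miR-743b-3p to 39.9 and 32.7 for miR-742-5p.

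Near copies differed in how alike their levels were. miR-743a-3p held 41.2% of the 3p reads of miR-743a and miR-743b in exposed mice (40.3 to 42.2) and 45.6% in control mice (44.7 to 46.4), and these intervals did not overlap. On the 5p side the share of miR-743a was 53.0% in exposed mice (49.8 to 56.1) and 51.5% in control mice (48.1 to 54.8). The copy with more 3p reads was thus miR-743b, while the 5p reads of the copies were close to equal. miR-883a-3p and miR-883b-3p, which differ by 1 base, had far from equal levels: miR-883a-3p held 95.1% of their reads in exposed mice (94.4 to 95.7) and 94.2% in control mice (93.6 to 94.8). On the 5p side miR-883b had the more reads, with a share of miR-883a of 31.2% in exposed mice (23.4 to 40.04) and 43.7% in control mice (35.8 to 51.8). miR-742, whose hairpin lies 320 bases from that of miR-883a, had 49 reads of both arms in exposed mice and 42 in control mice, against 4291 and 5098 reads of miR-883a.

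None of the 10 members was called between exposed and control mice, against 2.89% of all mature miRNAs tested. At any size, miR-743a-5p and miR-743b-5p were higher (8.26% of all tested were) and miR-743a-3p was lower (9.30% of all tested were). Thus 2 of 10 were higher and 1 lower, and the median log2 ratio of the members was 0.07, against −0.04 over all 484. The shares over all tested are not matched for depth, and a miRNA with more reads passes at a smaller ratio. The members that passed ranked at 129 or better in each library. The members above 0 and below 0 were 5 each. Of the other X-linked list 26 miRNAs were tested, with a median of −0.06, of which none was called higher and 2 were called lower, and at any size 5 were higher and 8 lower.

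miR-743a-3p had 4636 normalised reads in exposed mice and 5626 in control mice, a log2 ratio of −0.28 (−0.34 to −0.22, exact binomial adjusted p = 4.96e-21). miR-743a-5p, from the other arm of the same hairpin, had 566 normalised reads in exposed mice and 427 in control mice, a log2 ratio of 0.41 (0.23 to 0.59, exact binomial adjusted p = 9.65e-05). The arms of miR-743a thus went apart, and the reads of the hairpin as a whole were at −0.22 (−0.27 to −0.16). miR-743b-5p had 502 normalised reads in exposed mice and 402 in control mice, a log2 ratio of 0.32 (0.13 to 0.51, exact binomial adjusted p = 0.00717). Its partner miR-743b-3p was at −0.02 (−0.07 to 0.02) and was not called at any size. When a dispersion was estimated by treating the libraries as replicates, edgeR's exact test called none of the 10, whether each miRNA had its own dispersion or all had a common one. None was then under an unadjusted p of 0.05, and the smallest adjusted p was 1 with the own and 0.956 with the common dispersion. With scaling by total reads, 6 of the 10 were higher or lower at any size, among them miR-743b-3p at −0.08, miR-883a-3p at −0.11 and miR-883b-3p at −0.35.

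miR-883 and miR-742 gave no call at any size. For miR-883a-3p the log2 ratio was −0.06 (−0.12 to 0.0033). miR-883b-3p was at −0.30 (−0.55 to −0.04, exact binomial adjusted p = 0.0976), and miR-883b-5p at 0.17 (−0.27 to 0.61). miR-883a-5p had the largest log2 ratio in size, −0.60, but its interval ran from −1.20 to −0.02 over 40 reads in exposed mice and 69 in control mice (exact binomial adjusted p = 0.166). miR-742-3p was at 0.46 (−0.37 to 1.30) and miR-742-5p at 0.34 (−0.65 to 1.34), and these counts were too low to show a difference of that size. Over all miRNAs tested, 113 of 230 5p arms lay above 0 and 134 of 234 3p arms below 0, with medians of −0.02 and −0.05. Of the members' 5p arms 4 lay above 0, all but miR-883a-5p, and of their 3p arms 4 lay below 0, all but miR-742-3p. Among these, the intervals of miR-742-5p, miR-883b-5p, miR-743b-3p and miR-883a-3p included 0. The medians of the members were 0.32 for the 5p arms and −0.06 for the 3p arms. miR-743b-3p turned to 0.0036 with scaling by TMM, so that 3 of the 3p arms were then below 0.

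**Figure D3:**
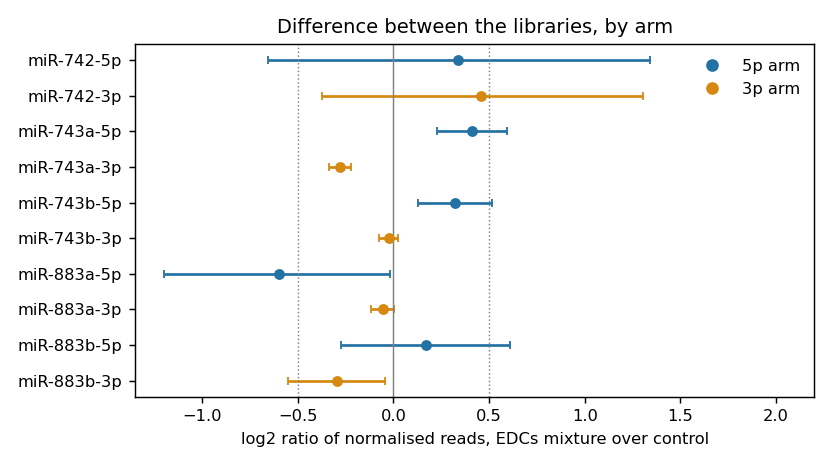
Log2 ratio of normalised reads, exposed over control mice, for each mature miRNA with exact 95% intervals for counting error, 5p arms in blue and 3p arms in orange. Dotted lines mark 0.5 in size, and the 5p arms of miR-743a and miR-743b lie above 0 with their intervals while miR-743a-3p lies below.

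Reads can also be summed by seed, the unit by which targets are chosen. The seed of miR-743a-3p and miR-743b-3p had 10537 reads in exposed mice (2.10% of the library) and 13169 in control mice (2.39%), a log2 ratio of −0.14 (−0.17 to −0.10). The seed of miR-883a-3p and miR-883b-3p had 4472 reads in exposed mice and 5338 in control mice, a log2 ratio of −0.07 (−0.13 to −0.01). The seed of miR-743a-5p was read mostly from miR-871-5p, which had 1307 reads in exposed mice and 1446 in control mice. With both added it had 1838 reads in exposed mice and 1901 in control mice (0.14, 0.04 to 0.23). The members of a seed pair thus had log2 ratios of −0.28 and −0.02 in the miR-743 group and of −0.06 and −0.30 in the miR-883 group.

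Arm use needs no scaling, since both arms are read in the same library. In each library the 3p arm had more reads than the 5p arm in all 5 hairpins. This was so in 43.6% of the 179 hairpins tested in exposed mice and in 45.3% in control mice. Of 14 other X-linked hairpins, 8 in exposed mice and 9 in control mice also had more reads of the 3p arm. The 5p share of reads was lowest in miR-883a, with 0.932% in exposed mice (0.667 to 1.27) and 1.35% in control mice (1.05 to 1.71). miR-743b followed with 7.07% in exposed mice (6.47 to 7.71) and 5.65% in control mice (5.14 to 6.19), and miR-743a with 10.9% (10.03 to 11.8) and 7.05% (6.43 to 7.70). In miR-883b the 5p share was 28.5% in exposed mice (23.5 to 33.9) and 22.4% in control mice (18.4 to 26.8). miR-742 was the most even, with 40.8% in exposed mice (27.0 to 55.8) and 42.9% in control mice (27.7 to 59.0). Both intervals include an even split, so the counts do not settle which arm of miR-742 is used more. Near copies differed here as well: miR-883b used its 5p arm for a far larger share of reads than miR-883a in each library, with intervals that lay far apart, though the copies share the sequence of the 3p arm but for 1 base.

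**Figure D4:**
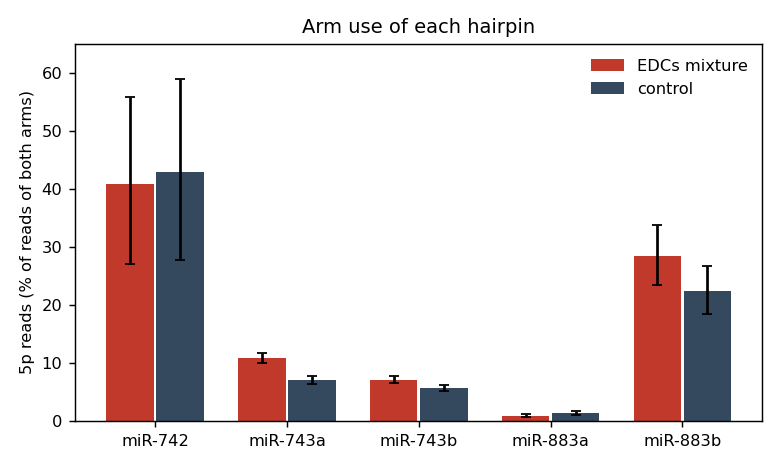
Share of 5p reads among the reads of both arms of each hairpin, in exposed mice (left bar) and control mice (right bar), with exact 95% intervals. The share is highest in miR-742 (40.8% and 42.9%) and lowest in miR-883a (0.932% and 1.35%), and the intervals of exposed and control mice lie apart in miR-743a and miR-743b.

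The arms were compared between the libraries with a 2-sided Fisher exact test of 5p and 3p reads, over all hairpins with at least 5 reads of each arm when the libraries were added, and called at an adjusted p under 0.05 and a log2 odds ratio of at least 0.5 in size. miR-743a was called: its 5p reads gained on its 3p reads in exposed mice by a log2 odds ratio of 0.69 (exact 95% interval 0.50 to 0.88, adjusted p = 3.06e-11 from the Fisher exact test). It was thus 1 of 5 hairpins called, against 5.03% of all 179. miR-743b moved the same way by 0.35 (0.15 to 0.54, adjusted p = 0.00898 from the Fisher exact test), under the size minimum, so that 2 of 5 had a higher 5p share at any size, against 5.59% of all. Those shares over all hairpins are not matched for depth. Both copies, like every hairpin with a higher 5p share at any size, had at least 100 reads of each arm in each library. The intervals of the copies overlapped, and the difference between them was not tested. miR-883b was at 0.47 (−0.05 to 0.98) and miR-883a at −0.54 (−1.15 to 0.04), each with an adjusted p of 0.340 from the Fisher exact test, and miR-742 at −0.12 (−1.44 to 1.21). With the common dispersion added to the counting error, an alternative chosen after seeing the data, none of the 179 hairpins was called (6 at an unadjusted p under 0.05), and miR-743a had an adjusted p of 0.908.

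The shift of miR-743a was among the largest of the well-read hairpins. Over the 37 hairpins with at least 100 reads of each arm in each library, the log2 odds ratio ran from −0.56 to 0.69 with an SD of 0.35 and a median of 0.16, and miR-743a was at rank 2 in size after miR-465b. Among 14 other hairpins of the X-linked list, miR-465a (0.57), miR-465b (0.69) and miR-465c (0.67) were called with a higher 5p share in exposed mice, and miR-471, the hairpin next to miR-883b on the chromosome, with a lower one (−0.56). miR-465a, miR-465b and miR-465c are near-identical copies, and a read may have been counted on several of them. Their calls may therefore not be separate. miR-871, with the seed of miR-743a-5p on its own 5p arm, was at −0.23 (−0.35 to −0.12), lower at any size. Of the 14, 4 had a higher 5p share at any size, 3 of which were called, and 2 had a lower share. The hairpins of the cluster thus included shifts to either arm.

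**Figure D5:**
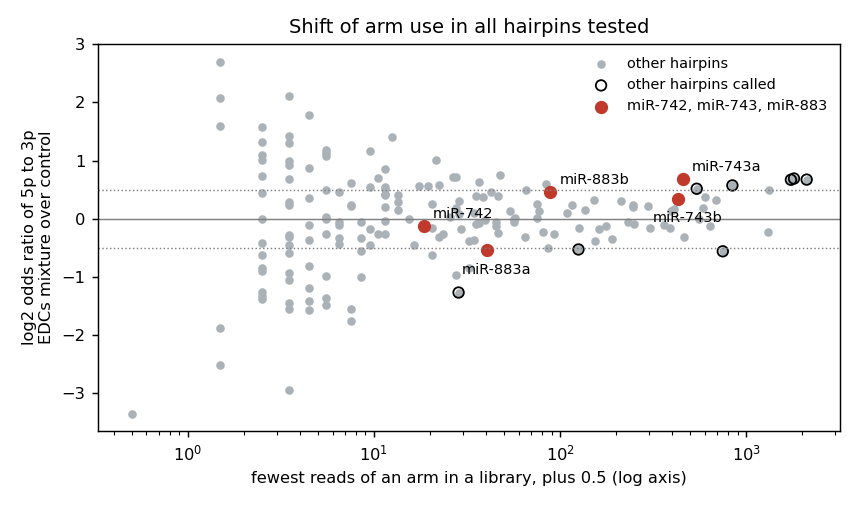
Log2 odds ratio of 5p to 3p reads, exposed over control mice, of the 179 hairpins tested, against the fewest reads of an arm in a library (plus 0.5, log axis). Dotted lines mark 0.5 in size and rings mark other hairpins that were called, and miR-743a at 0.69 lies at the upper edge of the well-read hairpins.

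The reads of near copies were also added, since part of the 3p reads could have been placed on the wrong copy. The 5p arms of miR-743a and miR-743b differ at 5 of 21 bases, more than the 3 mismatches allowed. For complete 5p reads the sum is therefore not a check of placement. miR-871-5p, 3 edits from miR-743a-5p, was not added. Together, miR-743a and miR-743b had 1002 reads of the 5p arm and 10537 of the 3p arm in exposed mice, a 5p share of 8.68% (8.18 to 9.21), and 884 and 13169 reads in control mice, a share of 6.29% (5.89 to 6.70). The log2 odds ratio was 0.50 (0.37 to 0.64, adjusted p = 1.47e-11 from the Fisher exact test), at the edge of the size minimum and called. These sums hold the reads of miR-743a, which was called alone, so the call is not separate from that one. For miR-883a and miR-883b together, the 5p share was 2.78% in exposed mice (2.33 to 3.30) and 2.87% in control mice (2.45 to 3.35), a log2 odds ratio of −0.05 (−0.40 to 0.30). Over all 10 members, 7.10% of the reads came from 5p arms in exposed mice (6.71 to 7.51) and 5.41% in control mice (5.10 to 5.74).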

How the data were processed

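The deposited files hold raw counts made by the authors, 1 whole number of reads for each mature miRNA. Per the study's methods, adapters were trimmed with cutadapt, reads shorter than 12 nucleotides were dropped, and the rest were aligned to mm10 with bowtie (up to 3 mismatches, all alignments of the best stratum) and counted with HTSeq on miRBase v21. Versions of these tools: not given in the sources used here. Lines that name no miRNA were left out: ambiguous reads were 2595 in exposed mice and 2919 in control mice (0.515% and 0.528% of named and ambiguous reads together), and the line for reads with several alignments was at 0. Without molecular identifiers, PCR copies of a molecule are not independent reads.

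Counts were compared by exact binomial tests, and arms by Fisher exact tests, over the whole table. At 20, 200 and 2000 control reads an unchanged level leaves log2 intervals of −0.97 to 1.03, −0.30 to 0.30 and −0.09 to 0.09. Alternatives were other scalings, minimum reads and size minima, a pseudocount of 0.5, dispersions estimated with edgeR and the adding of near copies. The tests were tried on simulated counts with known changes and counting error alone. No spread between mice or libraries was simulated, so the trial does not bear on it. All 10 members were named, and of other miRNAs the X-linked list by counts, those with a member's seed, neighbours on the chromosome, the 3 nearest to miR-743b-3p in level, and cell type markers. miR-465 hairpins were named for their calls, after their values were seen. The members and lists were chosen with earlier results of these data known. Python 3.11.15, scipy 1.17.1, pandas 2.3.3, R 4.3.3 and edgeR 4.0.16 were used.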

Additional observations from a re-analysis of the deposited data

How the results depend on the processing

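With 1 library per group no replicate could be left out, and no spread between mice enters any value. No paired analysis was possible because each group holds 1 library. The 14 mature miRNAs called (3 higher, 11 lower) became 12 to 20 under other scalings and minimum reads, 85 without a size minimum, 5 with a size minimum of 1 and 0 with edgeR's exact test, in which 5 had an unadjusted p under 0.05 with a dispersion of each miRNA and 17 with a common dispersion. The 3 members higher or lower at any size became 6 with scaling by total reads and 0 with either dispersion. The 9 hairpins called for arm use became 10 with a minimum of 20 reads for each arm, 15 without a size minimum and 0 with the common dispersion added. Both uses of the common dispersion were chosen after seeing the data. These dispersions hold any true difference between the libraries. The log2 ratio of the summed members was −0.14 with scaling by total reads, −0.06 with TMM and −0.13 without miR-743b-3p. Directions turned for miR-743b-3p, to 0.0036 with TMM and 0.0028 with edgeR, and, with near copies added, for miR-883b-5p (−0.12) and for the arms of miR-883b (−0.048), whose reads are then mixed with those of miR-883a. Depth limits miR-742 and miR-883a-5p most, at 18 to 69 reads in a library.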
